A study of Mus musculus with 75 samples.

Results

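The comparison described here sets mouse primordial germ cells (PGCs) at E11.5 against those at E10.5 (days of embryonic development), the day over which these cells settle in the forming gonad. It rests on 4 of the 75 libraries of the series, 2 for each stage, chosen by their labelled stage and not by any measured value. Both stages have the strain label ICR:C57BL/6=1:1 and the genotype Dppa3-EGFPTg/0, a transgene in which the promoter of a PGC gene drives a green fluorescent protein, and the GFP-positive cells were sorted by flow cytometry. Sex is not labelled at these stages, and the labelled tissue is germ cells, with no statement of where in the embryo they lay. Each library was amplified from 1 ng of RNA and sequenced at the 3' ends of transcripts (SC3-seq). The labels do not say whether the 2 libraries of a stage came from separate litters. The p-values measure the spread between libraries of a group, estimated over 22 embryo libraries, and that spread may be technical.

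PGCs are set apart from the somatic lineages in the early embryo, travel through the hindgut and enter the genital ridges. On the way they lose most DNA methylation, and a set of germ line genes whose promoters are methylated in somatic cells is switched on around the time of arrival. These genes serve later steps: RNA control by proteins such as DAZL and DDX4, transposon silencing by the piRNA pathway, and the pairing of chromosomes in meiosis.

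Levels are in the deposited unit, RPM, in which the reads of a gene are scaled to the size of the library. Estimated depths were 3.85 and 3.82 M reads at E10.5 and 3.81 and 3.12 M at E11.5, so that 3 reads correspond to 0.780, 0.786, 0.787 and 0.962 RPM, in that order. Over the genes tested, the Pearson r of log2(RPM + 1) was 0.980 between the E10.5 libraries, 0.979 between the E11.5 libraries and 0.969 to 0.973 between stages. Spike-in transcripts held 15291 and 15344 RPM at E10.5 and 19531 and 18057 RPM at E11.5. The sorted cells carried their label: all 15 germ cell markers were above 0 in all 4 libraries, and they summed to 6765 and 6979 RPM at E10.5 and 7450.0 and 7525 RPM at E11.5.

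Over this day, 142 of 12567 genes tested were called, 1.13% of them, where a call is a Benjamini-Hochberg adjusted p below 0.05 in limma and an absolute log2 difference of at least 1. Of these, 70 genes were higher at E11.5 (0.557%) and 72 were lower (0.573%). The genes that rose included late germ line genes, led by Dazl. Those that fell included embryonic globins, collagen and smooth muscle genes and several imprinted genes, while none of the 24 tested genes of pluripotency and PGC specification was called. The day before, E10.5 against E9.5, had 847 calls (6.74%), and the day after, the mean of both sexes at E12.5 against E11.5, had 804 (6.40%). A test of the difference between the step described here and the step before it called 215 genes (1.71%), 144 with a higher second step (1.15%) and 71 with a lower one (0.565%). The E10.5 libraries enter both steps, and that test called 39 genes without the first of them and 28 without the second. These neighbouring comparisons share libraries with the one described here and are given only as values side by side. The E9.5 libraries held 1114 and 475 RPM of spike-in, far less than those of E10.5, and the part of that difference in the E9.5 values was not tested.

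The fit shared the spread of 22 embryo libraries. The median log2 difference over all genes was 0.015, and 416 further genes reached an absolute log2 difference of 1 without passing the test. All 142 called genes had groups that did not overlap, as did 5446 of all genes tested (43.3%). Stages that do not overlap are therefore no further support for a gene, called or not, and the rule for named genes required them. The number of calls moved from 142 to 78 without the first E10.5 library, to 88 without the first E11.5 library and to 64 without the second E11.5 library.

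**Figure D1:**
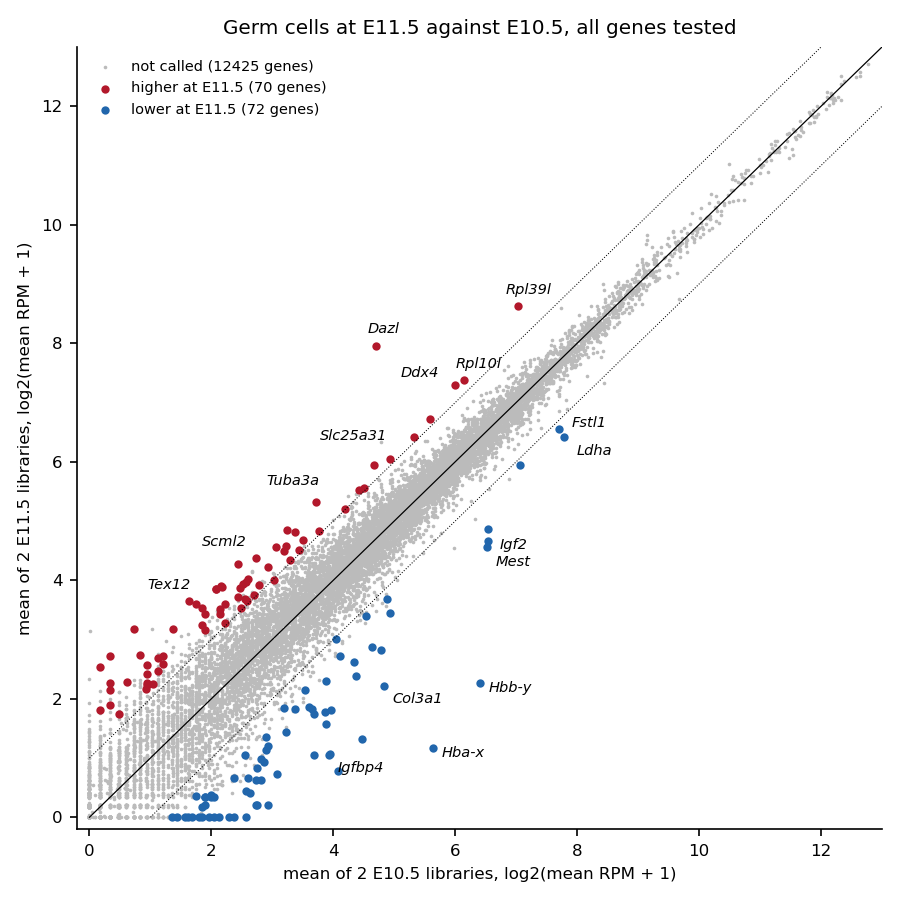
Mean level of each tested gene at E10.5 (x axis) and at E11.5 (y axis), both as log2 of the mean RPM of 2 libraries plus 1. Red points are the 70 genes called higher and blue points the 72 called lower, dotted lines mark a difference of 1 on this scale, and Dazl and the globins Hba-x and Hbb-y stand farthest from the diagonal among the labelled genes.

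Dazl encodes an RNA-binding protein that germ cells need for their later development. It measured 24.4 and 25.4 RPM at E10.5 and 246 and 248 RPM at E11.5. Both E11.5 libraries lay far above both E10.5 libraries, by 9.91-fold in the means, and the log2 difference of 3.26 (SE 0.13, adjusted p = 2.69e-14 in limma) was the largest rise among the genes called. The gene stood at 5.86 and 4.11 RPM at E9.5, and at E12.5 it reached 1386 and 1359 RPM in females and 1245 and 1269.8 RPM in males.

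Ddx4 encodes a DEAD-box helicase of the germ granule. Its level was 57 and 68.7 RPM at E10.5 and 164 and 148 RPM at E11.5, a 2.48-fold step with no overlap (log2 difference 1.30, SE 0.12, adjusted p = 2.87e-07 in limma). Unlike Dazl it already stood at 25.2 and 18.7 RPM at E9.5, and it went on to 438 and 442 RPM in E12.5 females.

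Dazl and Ddx4 belong to a list of 29 late germ line genes known to need promoter demethylation. The 250 bases before the start of a gene were read from RefSeq (GRCm38.p6) for 26 of the 29, and methylation itself was not measured in these files. Dazl, with 20 CG dinucleotides in the window (chr17:50293621-50293870, minus strand), and the globin Hbb-y, a gene that fell, with 1 (chr7:103853208-103853457, minus strand), are shown with each CG in capitals. Hbb-y is near the low end of the genes that fell: 56 of the 72 had a promoter in the table, with 0 to 40 CG, the most in that of Grb10.
Dazl: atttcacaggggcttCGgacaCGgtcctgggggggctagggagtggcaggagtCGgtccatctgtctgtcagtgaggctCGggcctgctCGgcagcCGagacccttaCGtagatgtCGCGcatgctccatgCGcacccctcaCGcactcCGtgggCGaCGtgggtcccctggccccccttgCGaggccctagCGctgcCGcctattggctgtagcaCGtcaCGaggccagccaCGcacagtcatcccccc
Hbb-y: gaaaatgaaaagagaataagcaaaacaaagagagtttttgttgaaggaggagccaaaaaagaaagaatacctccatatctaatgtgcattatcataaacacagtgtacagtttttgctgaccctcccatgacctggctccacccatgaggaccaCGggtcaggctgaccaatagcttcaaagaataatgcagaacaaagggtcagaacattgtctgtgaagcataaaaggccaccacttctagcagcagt

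The number of CG dinucleotides ran from 4 to 31 over the 26 promoters. The median was 17.5 over the 12 members that rose and 14 over the 13 promoters of tested members not called, against 16 over the 9789 promoters of genes tested (77.9% of these genes matched) and 6.0 over all 27025 promoters of the table. Both medians of the list were close to that of the genes tested. The hexamer CACGTG, an E-box that the MAX and MGA repressors of germ line genes are known to bind, was searched on both strands, where it reads the same. It was found in 11 of the 26 promoters (42.3%), in 7 of the 12 (58.3%) and in 4 of the 13 of members not called (30.8%). The shares were 859 of those of genes tested (8.78%) and 1634 of all promoters (6.05%). The hexamer TCCCGC or its reverse complement GCGGGA, which E2F6 is known to bind, was in 10 of the 26 (38.5%) and 6 of the 12 (50%), against 3065 of those of genes tested (31.3%) and 4564 of all (16.9%), so the share in the list was near that of the genes tested. These are counts of letters in a window and not of bound sites. Both hexamers, which can share at most 1 base, were in 4 of the 26 promoters (15.4%), in 283 of those of genes tested (2.89%) and in 397 of all (1.47%). Over all 70 genes that rose, 59 had a promoter in the table, of which 10 (16.9%) held CACGTG and 20 (33.9%) TCCCGC. Ddx4 (chr13:112652311-112652560, minus strand), Hormad1 (chr3:95559427-95559676, plus strand) and Slc25a31 (chr3:40708621-40708870, plus strand) are shown as members with the E-box, in capitals, which Hormad1 holds at 2 places. The Dazl window above has none.
Ddx4: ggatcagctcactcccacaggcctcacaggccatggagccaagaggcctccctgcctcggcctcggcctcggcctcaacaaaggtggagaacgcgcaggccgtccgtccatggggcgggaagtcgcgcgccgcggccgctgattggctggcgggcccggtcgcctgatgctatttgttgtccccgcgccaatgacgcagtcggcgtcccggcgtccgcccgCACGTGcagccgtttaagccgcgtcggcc
Hormad1: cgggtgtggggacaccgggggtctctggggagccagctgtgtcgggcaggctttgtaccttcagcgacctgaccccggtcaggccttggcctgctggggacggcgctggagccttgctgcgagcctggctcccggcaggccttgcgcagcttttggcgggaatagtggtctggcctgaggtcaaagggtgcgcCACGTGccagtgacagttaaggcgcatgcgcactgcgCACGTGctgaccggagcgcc
Slc25a31: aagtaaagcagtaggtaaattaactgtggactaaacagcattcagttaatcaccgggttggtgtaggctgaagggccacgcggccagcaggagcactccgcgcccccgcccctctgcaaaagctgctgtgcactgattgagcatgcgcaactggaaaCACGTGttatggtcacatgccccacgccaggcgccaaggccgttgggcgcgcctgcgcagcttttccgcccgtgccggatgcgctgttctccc

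Of the 29 late germ line genes, 28 were tested, 12 rose (42.9%, against 0.557% of all genes tested) and none fell. Another 5 (Fkbp6, Stk31, Tdrkh, Asz1 and Tex14) were higher at an adjusted p below 0.05 in limma but by less than 1 on the log2 scale. The median log2 difference of the 28 was 0.82, against 0.015 for all genes, and 26 were above 0. The exceptions were Taf7l (-0.47) and Pet2 (-0.80), neither of which passed the test. Where 5 RPM was required in 2 of the 4 libraries compared, 10 of the 12 that rose were tested and called. With a pseudocount of 5 RPM, added before the logarithm in place of 1, 6 of the 12 were called. The list summed to 563 and 616 RPM at E10.5 and 1348 and 1337 RPM at E11.5, to which Dazl contributed the values given above. Of the 12, 10 kept the call without the first E10.5 library, 9 without the second, 11 without the first E11.5 library and 10 without the second. Sycp1, Tex101, Mael and Mov10l1 were those that lost it in 1 or more of these, and Tex101, a surface protein gene of germ cells, had 1.82 and 3.41 RPM at E10.5 and 5.77 and 11.2 RPM at E11.5 (adjusted p = 0.139 without the first E10.5 library and 0.16 without the second E11.5 library, in limma). The list had 17 members higher at E10.5 than at E9.5 (2.56% of all genes were), with a median of 1.24, and 12 higher at E12.5 than at E11.5 (3.83% of all genes), with a median of 0.76.

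Several members are germ line copies of genes that every cell uses. Slc25a31 encodes the ADP/ATP carrier of male germ cells. It measured 23.4 and 25.4 RPM at E10.5 and 58.3 and 62.6 RPM at E11.5 (log2 difference 1.27, SE 0.11, adjusted p = 8.69e-08 in limma), with clear separation of the stages. Its widely used relatives Slc25a4 and Slc25a5 had log2 differences of 0.09 and -0.21 and were not called.

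Rpl10l, a copy of the ribosomal protein gene Rpl10 used in male germ cells, went from 64.2 and 74.4 RPM to 161 and 170 RPM (log2 difference 1.25, SE 0.15, adjusted p = 2.06e-05 in limma). Rpl39l, a similar copy of Rpl39 that was not in the list, went from 116 and 144 RPM to 376 and 410.0 RPM, and at 1.59 (SE 0.17, adjusted p = 6.70e-06 in limma) its difference was the larger. The stages were well apart in both. The parent genes Rpl10 and Rpl39 had log2 differences of -0.11 and 0.18 and were not called. Reads of such near copies could be shared with their parents, so the split between copy and parent is uncertain.

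The α-tubulin genes Tuba3a and Tuba3b are expressed in the testis. Tuba3a had 11.8 and 12.6 RPM at E10.5 and 34.6 and 43.1 RPM at E11.5, and Tuba3b had 3.77 and 3.14 RPM against 13.4 and 14.6 RPM. Both rose, by 1.59 and 1.75 on the log2 scale (adjusted p = 2.37e-05 and 3.92e-05 in limma), and being near copies they may share reads. The common α-tubulin Tuba1b differed by -0.04 and was not called.

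Genes of the germ granule and the piRNA pathway, which silences transposons with small RNAs, formed an overlapping list. Of 23 tested, 5 rose (21.7%, against 0.557% of all genes tested) and none fell, with a median log2 difference of 0.78. Besides Dazl and Ddx4 these were Mov10l1, Mael and Gtsf1. Under the filter on the 4 libraries compared 4 of the 5 were tested and called, and with a pseudocount of 5 RPM 2 of the 5 were called, Dazl and Ddx4. In a further overlapping list, of 18 tested RNA-binding proteins of the germ line, Dazl, Ddx4 and Cpeb1 rose (16.7%, against the same 0.557%), none fell and the median was 0.08. Mov10l1, the helicase that starts piRNA processing, had 15.1 and 10.2 RPM at E10.5 and 28.3 and 26.9 RPM at E11.5 (log2 difference 1.09, adjusted p = 0.00108 in limma). Mael, which acts with PIWI proteins in transposon silencing, had 26.2 and 17.3 RPM against 39.1 and 52.9 RPM (1.06, adjusted p = 2.53e-04 in limma). Gtsf1, a partner of PIWI proteins, went from 1.04 and 1.57 RPM to 6.82 and 3.21 RPM. In all 3 the stages did not overlap, but the libraries of a stage differed more than for Dazl or Ddx4.

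Piwil2, which encodes a PIWI protein, had 32 and 45.3 RPM against 60.6 and 61 RPM, a log2 difference of 0.66 (adjusted p = 0.041 in limma) that was below the size set for a call. Leaving out the second E10.5 library took Mov10l1 and Mael below that size too, at 0.83 and 0.77, and Mael was at 0.85 without the second E11.5 library. Gtsf1 failed the test without the first or second E10.5 library or the first E11.5 library, with adjusted p of 0.204, 0.0535 and 0.296.

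Of 30 tested genes of meiotic chromosomes, 6 rose (20%, against 0.557% of all genes tested) and none fell, and the median was 0.25. They were Tex12, Brdt, Syce3, Spo11, Sycp1 and Hormad1, and all but Hormad1 were below 3 RPM in both E10.5 libraries. Where 5 RPM was required in 2 of the 4 libraries compared, 3 of the 6 were tested and called. The others, Brdt, Syce3 and Sycp1, passed the main filter only with the help of other stages. With a pseudocount of 5 RPM, 1 of the 6 was called, Tex12. Tex12, of the central element of the synaptonemal complex, had 2.34 and 1.83 RPM at E10.5 and 10.8 and 12.2 RPM at E11.5 (log2 difference 2.02, adjusted p = 1.21e-05 in limma). Hormad1, of the chromosome axis, had the highest RPM of the 6, with 20.9 and 20.2 RPM against 42.3 and 47.3 RPM (1.09, adjusted p = 6.21e-04 in limma). Neither showed any overlap between stages.

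Brdt, a bromodomain protein of meiotic and postmeiotic germ cells, had 0.52 and 1.31 RPM against 4.46 and 4.17 RPM. Sycp1, the transverse filament protein of the synaptonemal complex, had 0.78 and 1.05 RPM against 5.51 and 1.92 RPM. Spo11, whose product makes the DNA breaks of meiosis, had 2.6 and 2.88 RPM against 9.45 and 6.42 RPM. For Sycp1 the second E11.5 library was far below the first. Stra8, the gene of meiotic entry, was listed at 0 in all 4 libraries. Sycp3, the axis protein often used as a marker of meiosis, had 5.98 and 6.03 RPM against 14.2 and 8.02 RPM and was not called (adjusted p = 0.149 in limma). Without 1 library at a time, 3 of the 6 kept their call without either E10.5 library or without the first E11.5 library, and 4 without the second E11.5 library. Syce3 and Spo11 lost it each time (adjusted p from 0.0863 to 0.276 and from 0.0884 to 0.298), and Sycp1 in the first 3 (0.0544 to 0.321).

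**Figure D2:**
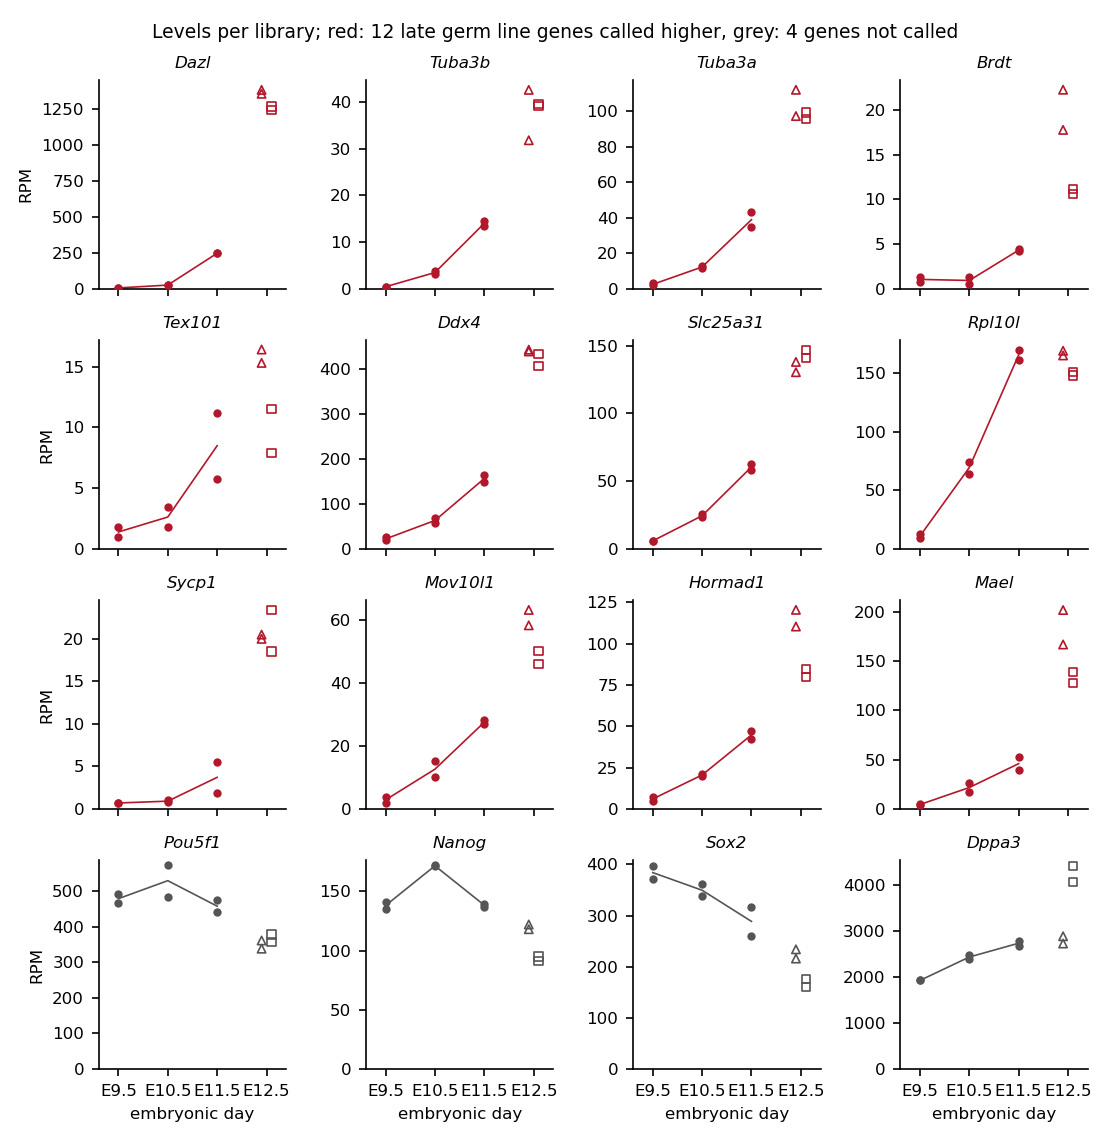
RPM per library (y axes, each from 0) by embryonic day (x axes) for the 12 late germ line genes called higher, in red, and 4 pluripotency and PGC genes not called, in grey. Points are single libraries, lines join the means of 2, and at E12.5 open triangles are females and open squares males. All 12 germ line genes are above their E10.5 values at E11.5, while Pou5f1, Nanog, Sox2 and Dppa3 were not called.

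Other genes that rose by the rule for named genes were Aurkc, Cpeb1, Trap1a, Xlr3c, Lhx1, Wfdc2, Xrcc6bp1 and Snhg12. Aurkc, the aurora kinase of meiotic divisions, had 8.83 and 9.96 RPM at E10.5 and 29.1 and 25.2 RPM at E11.5, but its call (1.44, adjusted p = 0.0121 in limma) was lost without any 1 of the 4 libraries, with adjusted p from 0.0534 to 0.113. Its relatives of mitosis, Aurka and Aurkb, differed by 0.02 and 0.06. Cpeb1, which controls the poly(A) tails and translation of stored mRNAs, had 23.6 and 11 RPM against 36 and 35.9 RPM (1.10, adjusted p = 0.0044 in limma), and its difference was 0.58 (adjusted p = 0.125) without the second E10.5 library. The stages did not overlap for either gene, which the rule required.

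Lhx1 encodes a homeodomain protein of the mesonephros and other tissues and measured 8.57 and 8.39 RPM against 32.8 and 22.8 RPM (1.58, adjusted p = 0.0102 in limma). It was the member of the mesonephros and gut list that rose, of 6 tested (16.7%, against 0.557% of all genes tested). Of the 15 members of that list in the table, 7 were at 0 in each E10.5 library and 9 and 7 at E11.5, and their sums were 30.1 and 31.2 RPM against 51.2 and 42.3 RPM, sums that include Lhx1. In E12.5 germ cells Lhx1 was at 79.3 and 82 RPM in males and 13.6 and 17.8 RPM in females. Its call was lost without either E10.5 library (adjusted p = 0.073 and 0.0664) or the first E11.5 library (0.128).

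Wfdc2, a small secreted protein gene, had 7.32 ± 4.47 RPM (SD, n = 2) against 22.5 ± 5.84 RPM, and Snhg12, a host gene of small nucleolar RNAs, 32.7 and 45.6 RPM against 89.8 and 78.6 RPM. Xrcc6bp1 had 8.06 and 8.12 RPM against 19.7 and 23.1 RPM. By the rule that named them, none of these overlapped between stages. Without the first E10.5 library the log2 differences of Wfdc2, Xrcc6bp1 and Snhg12 were 1.01, 1.29 and 0.87. Without the second E11.5 library they were 1.33, 1.19 and 1.19, and that of Snhg12 was 1.01 without the first E11.5 library. None of these was a call.

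On the X chromosome, 11 of 534 tested genes rose (2.06%) and 1, Heph, fell. On the autosomes 58 of 11650 rose (0.498%) and 71 fell. The median log2 difference of X-linked genes was 0.000, against 0.017 on the autosomes. Of the list of 25 tested Rhox and other X-linked germ line genes, 4 rose (16%, against 0.557% of all genes tested), none fell and the median was 0.31. The 4 were Xlr3c, Xlr4a, Usp26 and Tktl1. Under the filter on the 4 libraries compared 3 of the 4 were tested and called, and 1 of the 4 was called with a pseudocount of 5 RPM. Trap1a, an X-linked gene of a tumour antigen outside that list, had 38.7 and 55.6 RPM against 114 and 94.3 RPM (1.14, adjusted p = 2.37e-04 in limma). Xlr3c, from a family of near copies that may share reads, had 7.84 and 8.94 RPM against 19 and 26.8 RPM (1.33, adjusted p = 0.00171 in limma). Xlr4a, of the same family, had 4.59 and 5.34 RPM at E10.5 and a log2 difference of 1.07 (adjusted p = 0.0077 in limma). Scml2, a Polycomb-related protein of male germ cells named here after its values were seen, had 4.68 and 6.55 RPM against 18.6 and 20.9 RPM (1.66, adjusted p = 2.56e-06 in limma). The stages were apart in each of these. The testis genes Usp26 and Tktl1 also rose, from 4.16 and 3.14 to 9.71 and 7.7 RPM and from 0.26 and 0.524 to 1.84 and 2.89 RPM. Between 5 and 8 of the 11 kept their call without 1 of the libraries: Usp26 and Tktl1 lost it each time, Xlr4a without the first library of either stage (adjusted p = 0.0865 and 0.092), Xlr3c without the second E11.5 library (0.0742), and Trap1a was below the size set for a call without the first E10.5 library, at 0.89.

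Genes of pluripotency and PGC specification showed no call in either direction. Of 24 tested in limma, 4 had an unadjusted p below 0.05, as did 1663 of all genes, and the log2 differences ran from -0.39 to 0.90 with a median of -0.03. Dppa3, whose promoter drives the reporter the cells were sorted on, had 2472 and 2399 RPM at E10.5 and 2678 and 2794 RPM at E11.5 (0.17, adjusted p = 0.878 in limma). Pou5f1, the pluripotency factor OCT4, had 484 and 574 RPM against 439.8 and 475 RPM (-0.20, SE 0.11, adjusted p = 0.452 in limma). Its libraries did not overlap between stages, as for 43.3% of genes tested, but the difference did not pass the test.

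Nanog had 171 and 172 RPM against 137 and 139.5 RPM and Sox2 had 361 and 338 RPM against 317 and 260.2 RPM. The specification factors Prdm1, Prdm14 and Tfap2c differed by -0.33, 0.08 and -0.29, with SE of 0.24, 0.30 and 0.25. Dppa5a, a small RNA-binding protein of pluripotent cells, had 1369 and 1494 RPM against 2119.8 and 2049.9 RPM, and Zfp42 (REX1) had 69.2 and 68.3 RPM against 105 and 99 RPM. Those 2 were apart between stages, as were 43.3% of genes tested, and missed the test (adjusted p = 0.0598 and 0.0701 in limma).

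Of 33 tested genes of migration, adhesion and the cell surface, none was called in limma (5 at an unadjusted p below 0.05) and 25 were below 0, with a median of -0.16. Kit, the receptor for the survival signal of migrating PGCs, had 257 and 211 RPM against 223 and 204 RPM, so its stages overlapped. Itgb1, the integrin subunit PGCs need to enter the gonad, had 101 and 93.3 RPM against 83.5 and 71.5 RPM (-0.32, adjusted p = 0.402 in limma). Cxcr4, the receptor for the guiding chemokine CXCL12, was too low to be tested, at 2.34 and 1.57 RPM and 2.36 and 1.28 RPM. Ifitm3, an interferon-induced membrane protein gene of early PGCs, had 743 and 879.5 RPM against 448 and 411 RPM, a log2 difference of -0.91 (adjusted p = 5.18e-04 in limma) just below the size set for a call.

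The 21 tested genes of the DNA methylation machinery had no call in limma (4 at an unadjusted p below 0.05) and a median of -0.12. Dnmt1, the maintenance methyltransferase, had 226 and 197 RPM against 210.3 and 183 RPM, with overlap. Uhrf1, which recruits DNMT1 to replicated DNA, had 7.8 and 7.34 RPM against 3.15 and 3.53 RPM and missed the test (-0.98, adjusted p = 0.0872 in limma). Dnmt3a, a de novo methyltransferase, had 37.2 and 36.7 RPM against 29.7 and 19.6 RPM (adjusted p = 0.106). Tet1, which oxidises 5-methylcytosine, had 86.5 and 92.2 RPM against 90.3 and 107 RPM, with overlap.

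Lists of mitosis (26 genes tested), DNA replication (25), apoptosis (21), oxidative phosphorylation (35), Polycomb and histone methylation (30), histone chaperones (20), MHC and interferon genes (13), stress genes (14), and the BMP (13), Nodal (14), FGF (15) and WNT (16) pathways had no call in limma, and their medians lay between -0.24 and 0.16. From 1 to 5 members of each had an unadjusted p below 0.05. Among 8 inhibitors of cyclin-dependent kinases none was called (3 at an unadjusted p below 0.05), although Cdkn1a (p21) had 12.7 and 22.8 RPM against 45.7 and 37.9 RPM (1.24, adjusted p = 0.0716 in limma). Cdkn1a was called under 3 of the 14 alternatives, with adjusted p from 0.00115 to 0.519 over all of them. The 18 tested genes that later differ between the sexes also had no call in limma (5 at an unadjusted p below 0.05). Lefty2, a Nodal antagonist high in male germ cells, had 27.5 and 25.4 RPM against 75.7 and 83.6 RPM (1.55, SE 0.43, adjusted p = 0.0612 in limma), and Lefty1 had 22.6 and 16.8 RPM against 41.9 and 44.4 RPM. The stages were apart for both, as for 43.3% of genes tested. Lefty2 was called under 5 of the 14 alternatives and Lefty1 under 2. In the same list Dmrt1 and Sohlh2, transcription factors of germ cells, were higher by 0.86 and 0.98 (adjusted p = 0.0253 and 0.0352), below the size set for a call.

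**Figure D3:**
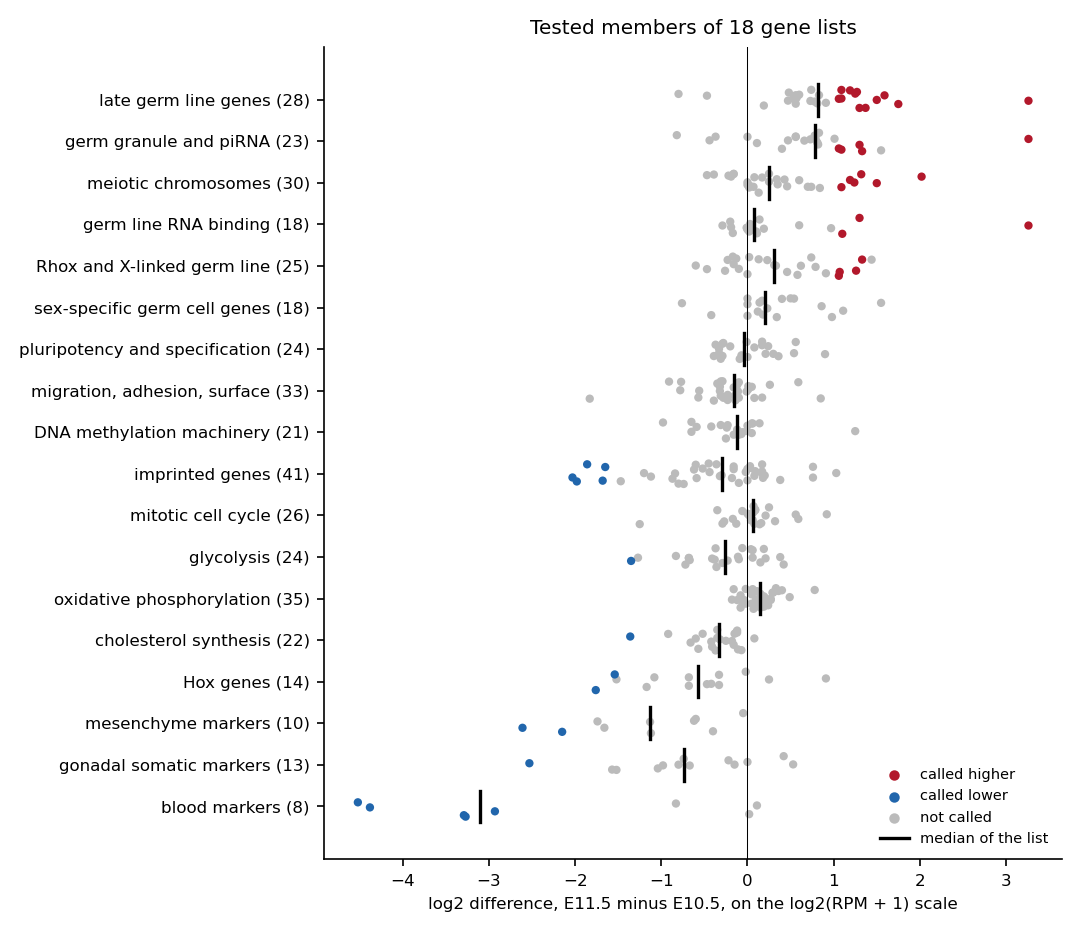
Log2 difference of E11.5 minus E10.5 on the log2(RPM + 1) scale (x axis) for the tested members of 18 gene lists, with the number tested in brackets. Points are genes, red called higher, blue called lower and grey not called, and black bars are medians: 0.82 for the late germ line genes, -0.03 for pluripotency and specification, -0.30 for imprinted genes and -3.10 for blood markers.

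Among genes that fell, the largest differences were those of the globins. The embryonic α-globin Hba-x had 55.3 and 42.5 RPM at E10.5 and 1.84 and 0.642 RPM at E11.5 (log2 difference -4.52, SE 0.52, adjusted p = 1.37e-05 in limma). The embryonic β-globin Hbb-y had 80.3 and 87.5 RPM against 6.3 and 1.28 RPM (-4.38, SE 0.71, adjusted p = 8.57e-04 in limma). Hba-a1 and Hba-a2, near copies that may share reads, also fell: Hba-a1 had 18.4 and 23.7 RPM against 2.49 and 0.481 RPM, and Hba-a2 had 14.4 ± 2.76 RPM against 1.09 ± 0.866 RPM (SD, n = 2). At E11.5 all of these values but that of Hbb-y in the first library were under 3 RPM, and the second library was the lower for each gene.

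Of 8 blood markers tested, 5 fell (62.5%, against 0.573% of all genes tested), all of them globins, and 7 had fallen from E9.5 to E10.5, where 4.18% of all genes fell. The 17 blood markers in the table summed to 3992 and 3799 RPM at E9.5, 186 and 191 RPM at E10.5 and 16.8 and 6.1 RPM at E11.5. Ptprc, the common marker of white blood cells, was at 0 in all 4 libraries of E10.5 and E11.5, and Gata1, the erythroid factor, was at 0.26 and 0 RPM and then 0 in both. In sorted bulk RNA, fewer cells of a type and less RNA per cell cannot be told apart. Without the second E11.5 library the calls of Hba-a1 (adjusted p = 0.0793) and Hba-a2 (0.109) were lost, and Hba-a2 also without the second E10.5 library (0.0618).

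Mesenchyme genes formed another part of the decrease. Col3a1, of type III collagen, had 23.6 and 31.2 RPM against 3.41 and 3.85 RPM (-2.61, SE 0.55, adjusted p = 0.0122 in limma), and Acta2, smooth muscle actin, had 4.42 and 5.5 RPM against 0.0875 and 0.642 RPM (-2.15, adjusted p = 9.89e-04 in limma). Both were apart between stages, as were all 142 called genes. They were the 2 mesenchyme markers that fell of 10 tested (20%, against 0.573% of all genes tested), whose median was -1.12 and all of which were below 0. Under the filter on the 4 libraries compared Col3a1 was tested and called and Acta2 was not tested. With a pseudocount of 5 RPM Acta2 lost its call. The 12 markers summed to 488 and 439 RPM against 411 and 399 RPM, most of it Fn1, at 439 and 384 against 404 and 390.4 RPM. Without any 1 of the 4 libraries Col3a1 was not called, with adjusted p from 0.0647 to 0.111.

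No marker of gonadal somatic cells was called higher. Of 13 tested, 1 fell (7.69%, against 0.573% of all genes tested). It was Nr2f2, a nuclear receptor of interstitial and mesenchymal cells, with 4.68 and 6.81 RPM against 0 and 0.321 RPM (adjusted p = 0.0133 in limma). Nr2f2 passed the main filter only with the help of other stages. Without 1 library its log2 difference ran from -2.77 to -2.30, and the call was lost each time. The median was -0.74, and the 24 markers summed to 98.7 and 75 RPM against 43.2 and 59.2 RPM, with 8 and 6 at 0 against 8 and 8. Wt1 and Gata4, defining genes of the genital ridge, were at 2.86 and 2.62 against 0 and 0.642 RPM and at 2.34 and 0.524 against 0.262 and 0.321 RPM. Endothelial markers summed to 68.3 and 51.4 RPM against 36.5 and 46.2 RPM and neural markers to 29.9 and 16.5 RPM against 29.9 and 35.3 RPM, and of 5 tested in each list none was called in limma (0 and 1 at an unadjusted p below 0.05). The part of these other cells in the genes that fell was not tested.

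Cxcl12, Nrp1 and Igfbp4 are named here after their values were seen, since they fell from modest to near-zero levels. The chemokine gene Cxcl12, whose product attracts PGCs and is made by somatic cells, had 11.9 ± 0.852 RPM (SD, n = 2) against 0.525 and 1.6 RPM (-2.69, adjusted p = 0.00111 in limma). Nrp1, a receptor of semaphorins and VEGF, had 7.02 and 6.29 RPM against 0 and 0.321 RPM, and Igfbp4, a secreted binder of insulin-like growth factors, 14.2 ± 2.48 RPM (SD, n = 2) against 0.525 and 1.6 RPM. Of the 72 genes that fell, 58 had a mean under 5 RPM at E11.5 and 13 were at 0 in both E11.5 libraries, and of the 70 that rose 43 had a mean under 5 RPM at E10.5.

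**Figure D4:**
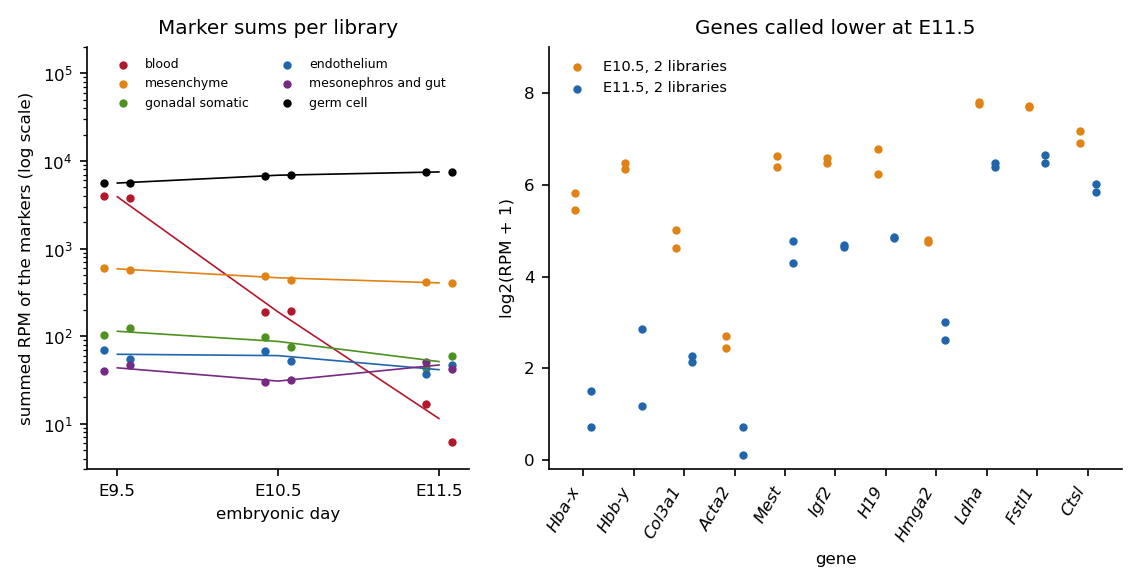
Left, summed RPM (log y axis) of the markers of 6 cell types in each library by embryonic day, with lines through the means of 2. Right, log2(RPM + 1) of 11 genes called lower in the 2 libraries of each stage. Blood markers drop from 186 and 191 RPM at E10.5 to 16.8 and 6.1 RPM at E11.5 while germ cell markers stay between 6765 and 7525 RPM. The 2 stages do not overlap for any of the 11 genes, as for all 142 called genes.

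Imprinted genes are expressed from 1 parental allele, and PGCs erase the imprints. Of 41 tested, 5 fell (12.2%, against 0.573% of all genes tested) and none rose, and the median was -0.30 with 27 below 0. Under the filter on the 4 libraries compared 4 of the 5 were tested and called. With a pseudocount of 5 RPM 4 of the 5 were called, in each case all but Nnat. Mest, of the hydrolase family, had 98.2 and 83.1 RPM at E10.5 and 18.6 and 26.3 RPM at E11.5 (-1.98, SE 0.22, adjusted p = 1.13e-05 in limma). Igf2, the fetal growth factor, had 95.4 and 87.5 RPM against 24.1 and 24.7 RPM (-1.86, SE 0.29, adjusted p = 5.12e-04 in limma), and its neighbour H19, a non-coding RNA expressed from the other parental allele, had 74.3 and 109 RPM against 28.3 and 27.6 RPM (-1.65, SE 0.24, adjusted p = 3.09e-04 in limma). All 3 were apart between stages, as were all 142 called genes.

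Grb10, an adaptor that restrains growth, had 23.6 and 15.7 RPM against 2.62 and 5.77 RPM, and Nnat had 2.34 and 2.88 RPM against 0.262 and 0 RPM. Peg3, a paternally expressed gene at a high level, had 237 and 242 RPM against 205 and 184 RPM and was not called (-0.30, adjusted p = 0.516 in limma). Mest, Grb10 and Nnat had already fallen between E9.5 and E10.5 (by 2.29, 2.40 and 2.10 on the log2 scale), whereas Igf2 and H19 were not called there. Mest stood at 450.4 and 443 RPM at E9.5, and after E11.5 it rose to 74.4 and 84.1 RPM in E12.5 males and 37.5 and 31.9 RPM in females. Mest, Igf2 and H19 were called without any 1 library. Grb10 was not without the first E10.5 library (adjusted p = 0.18) or the first E11.5 library (0.189), and Nnat was not without either E10.5 library (0.0672 and 0.106) or the second E11.5 library (0.142).

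Ldha, Fstl1 and Ctsl had the highest RPM at E10.5 among the genes that fell. Ldha, which makes lactate at the end of glycolysis, had 221 and 216 RPM against 82.2 and 87.6 RPM (-1.35, SE 0.17, adjusted p = 3.03e-05 in limma). It had been at 528 and 516 RPM at E9.5. It was the 1 gene of 24 tested in the glycolysis list that was called (4.17%, against 0.573% of all genes tested), and the median there was -0.26. Ctsl, a lysosomal protease, had 144 and 120.0 RPM against 64 and 56.8 RPM (-1.11, SE 0.14, adjusted p = 4.04e-05 in limma).

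Fstl1, a secreted glycoprotein gene, had 209 and 207 RPM at E10.5 and 98.7 and 87.6 RPM at E11.5 (-1.15, SE 0.23, adjusted p = 0.00748 in limma). At E9.5 it had been at 112 and 95.2 RPM, so E10.5 was its high point among the 3 stages. Its call was lost without either E10.5 library (adjusted p = 0.073 and 0.0578) or the second E11.5 library (0.1), and Ctsl was at -0.98 without the first E10.5 library.

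Hmga2, a chromatin protein of embryonic cells, had 27 and 25.9 RPM against 7.09 and 5.13 RPM (-1.96, adjusted p = 0.00189 in limma, and 0.0512 without the second E11.5 library). The last genes that the rule named were Tpm4, a tropomyosin (-1.77), Cgnl1, a protein of cell junctions (-1.48), Ugdh, which makes UDP-glucuronate (-1.21), and Rcn3, a calcium-binding protein of the secretory pathway (-1.14). Their adjusted p in limma ran from 0.0204 to 0.0348. Stages that do not overlap were a condition of that rule. Cgnl1 and Rcn3 were not called without any 1 of the 4 libraries (adjusted p 0.0913 to 0.168 and 0.127 to 0.204), Ugdh without either E10.5 library or the second E11.5 library (0.077 to 0.232) and Tpm4 without the first E10.5 or second E11.5 library (0.267 and 0.257).

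Of 22 tested genes of cholesterol synthesis, 21 were below 0 with a median of -0.33, and 1 fell (4.55%, against 0.573% of all genes tested). It was the sterol desaturase gene Sc5d, from 19 and 13.4 RPM to 5.42 and 5.77 RPM (adjusted p = 0.0314 in limma). Without 1 library its log2 difference ran from -1.60 to -1.12, and the call was lost each time. In the list of retinoic acid targets and metabolism, 1 gene of 14 tested fell (7.14%, against 0.573% of all genes tested). It was Stra6, the retinol-binding protein receptor, from 3.12 and 1.83 RPM to 0 in both libraries (adjusted p = 0.0077 in limma). Of 14 Hox genes tested, Hoxc8 and Hoxb2 fell, from 5.46 and 0.786 RPM and from 3.12 and 1.05 RPM to 0 in both E11.5 libraries (14.3% of the list, against 0.573% of all genes tested), and the median was -0.57. From E9.5 to E10.5, 13 of the 14 had fallen, where 4.18% of all genes fell. Stra6, Hoxc8 and Hoxb2 passed the main filter only with the help of other stages. Of these 3 genes at 0, none was called without the first E10.5 library or either E11.5 library (adjusted p 0.0605 to 0.54).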

How the data were processed

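Messenger RNA was measured by 3'-end sequencing (SC3-seq). The deposited table holds a signal that its name gives as RPM, for 26218 genes and 96 spike-in transcripts, and in each library the authors' values for genes sum to about the same total. Tools named in the submitters' processing notes are TopHat 1.4.1 with Bowtie 1.0.1, Cufflinks 2.2.0 and cutadapt 1.11, and the build is mm10. In the 22 embryo libraries, 759 positive values smaller than 0.001 RPM were taken as 0. Depths were estimated from the RPM step of 1 read, on which 88.5 to 92% of low values were whole within 0.05 reads, too few for a test on recovered counts, and limma was used instead. The limit of 3 reads covers counting error only.

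Genes with 5 RPM in at least 2 of the 22 libraries were transformed to log2(RPM + 1), a scale that understates changes of low genes. They were fitted with 1 mean for each of 11 groups in limma 3.58.1 under R 4.3.3 (eBayes with trend, 11 residual degrees of freedom, median residual SD 0.27), and the procedure was tested on simulated data. E11.5 was compared with E10.5, with the steps before and after and the difference of adjacent steps as further contrasts. Named genes are the 15 called each way with the largest change, provided the higher stage averaged 20 RPM or more, the stages did not overlap and the name was not a predicted one, beside members of 34 lists (723 genes) and others said to be chosen on their values. The members and lists were chosen with earlier results of these data known. Promoters are from RefSeq. Alternatives were other pseudocounts, filters, scalings, fits, a replicate block and leaving out each of the E10.5 and E11.5 libraries.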

Additional observations from a re-analysis of the deposited data

Results flagged for a closer look

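The change over the day from E10.5 to E11.5 was tested against the change over the day before, as a contrast of contrasts in limma. It was called for 215 of 12567 genes (1.71%), 144 with a higher second step (1.15%) and 71 with a lower one (0.565%). A higher second step can also be a fall smaller than the one before. The E10.5 libraries enter this contrast on both sides, and the number of calls was 39 and 28 without the first and the second of them (135 and 141 without an E11.5 library). For germ line genes already described, Dazl rose by 3.26 after 2.13 on the log2 scale (difference of steps 1.13, SE 0.23, adjusted p = 0.0106). Brdt rose by 1.50 after -0.10 (1.61, adjusted p = 0.0489), Spo11 by 1.24 after -0.97 (2.20, adjusted p = 0.0364) and Scml2 by 1.66 after -0.13 (1.79, adjusted p = 0.0021). The levels of Brdt and Spo11 at E10.5 were low, as given above, and enter both steps. Rpl10l and Asz1 had the larger step first, 2.59 and then 1.25 (-1.35, adjusted p = 0.00829) and 2.00 and then 0.73 (-1.27, adjusted p = 0.0334). Fstl1 had 1.00 and then -1.15 (-2.15, adjusted p = 0.00551). Of genes named below, Tcfl5 had -0.02 and then 1.39 (1.41, adjusted p = 0.0207) and Vwf 0.80 and then -1.84 (-2.64, adjusted p = 0.0152).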

How the results depend on the processing

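The 142 calls of E11.5 against E10.5 (70 higher, 72 lower) became 67 (30 and 37) with a pseudocount of 5 RPM and 101 (59 and 42) with the filter on the 4 libraries compared. Leaving out each of those libraries gave 64 to 104 calls, 35 to 63 higher and 28 to 41 lower. The other settings gave 117 to 162. None of the 142 turned sign, and 51 to 72 of them were still called without 1 library, 56 with the pseudocount of 5 RPM. E10.5 against E9.5 had 390 calls with that pseudocount and 515 with that filter (586 to 848 without 1 library), and E12.5 against E11.5 had 230 and 479 (527 to 807). The difference of steps had 386 calls in the fit on 14 libraries of E9.5 to E13.5 and 28 to 141 without 1 library. The causes were not tested. The filter on the 4 libraries tests fewer genes: 93 of the 142 remained. Of 69 named genes called, 19 were called under every alternative that tested them and 50 lost the call under at least 1. Of 31 not called, 6 were called under 1 or more of the 14: Lefty2 (5), Cdkn1a (3), Lefty1 (2) and Ifitm3, Fkbp6 and Tdrkh (1 each). Without 1 library at a time, 3 genes not called changed sign: Prdm14 (-0.04 to 0.21), Kit (-0.26 to 0.02) and Taf7l (-1.14 to 0.20).

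Same-numbered libraries of the 2 stages deviated from their means with a correlation of 0.0265 over genes. This value shows no shared deviation, but it cannot tell whether same-numbered libraries were prepared together. With the replicate block, 138 genes were called (67 higher, 71 lower). The edgeR fit on recovered reads was not run. RefSeq promoters matched 77.9% of the genes tested and 77.8% of those that fell, so promoter shares over these sets leave out the unmatched genes. Depth leaves genes under about 1 RPM unresolved in these libraries.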

Other observations

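Genes outside the lists, chosen here after their values were seen, extend both groups. Among those that rose were Tcfl5, a transcription factor of the testis, with 4.16 and 2.62 RPM at E10.5 and 8.92 and 11.9 RPM at E11.5 (log2 difference 1.39, adjusted p = 5.06e-05 in limma), and Kdm1b, a histone demethylase that acts on imprinted loci in oocytes, with 4.16 and 10.2 RPM against 13.9 and 16 RPM (1.07, adjusted p = 0.0201 in limma). Tktl2 and Cox7b2, germ line relatives of the housekeeping genes Tkt and Cox7b, had 0.26 and 0.262 against 3.41 and 4.17 RPM and 4.42 and 4.98 against 14.4 and 14.4 RPM (1.92 and 1.44, adjusted p = 0.00616 and 0.0121 in limma), while Tkt and Cox7b differed by -0.26 and 0.17 and were not called. Tcfl5 kept its call without any 1 library. Cox7b2 lost it without each of the 4 libraries (adjusted p from 0.0519 to 0.104), Kdm1b without each but the second E10.5 library (0.0701 to 0.421), and Tktl2 without the first E10.5 library (0.0559) and without the second E11.5 library (0.0858).

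Some single genes known from heart or vessel cells, likewise chosen after their values were seen, were among those that fell. In the list of endothelial markers, which holds neither Vwf nor Cd34, none of 5 tested was called in limma (0 at an unadjusted p below 0.05), the median log2 difference was -0.07 and 2 were above 0. The cardiac actin gene Actc1 had 4.16 and 6.29 RPM against 0 and 0.642 RPM, and Myh6, a cardiac myosin, 1.56 and 3.14 RPM against 0.394 and 0.16 RPM. Isl1, a factor of heart progenitors, had 2.34 and 1.57 RPM and then 0 in both E11.5 libraries. The endothelial genes Vwf and Cd34 had 2.08 and 3.14 RPM and 3.38 and 2.1 RPM at E10.5 and, at E11.5, 0 in both libraries and 0 and 0.321 RPM. Nrp2, the relative of Nrp1, had 13.3 and 14.4 RPM against 1.05 and 2.89 RPM, and Col4a2, of the basement membrane, 8.31 and 4.98 RPM against 1.31 and 1.28 RPM. Their adjusted p in limma ran from 0.00209 for Actc1 to 0.0355 for Myh6. All of these 7 genes but Nrp2 passed the main filter only with the help of other stages. Over the alternatives that tested it, the log2 difference of Vwf ran from -2.62 to -0.60. The calls of all but Vwf were lost without 1 or more of the libraries.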
